A study of Mus musculus with 13 samples.

Results

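The creatine kinase system of the mouse was followed through 6 genes in cells of the embryo and heart, from E8.5 to postnatal day 3 (P3). Creatine kinases move a phosphate between ATP and creatine, and phosphocreatine carries it from the mitochondria to the myofibrils and ion pumps, where kinases of the cytosol return it to ATP. Ckm encodes the muscle isoform of the cytosol and Ckb the brain isoform, which also runs in the early heart. Ckmt2 and Ckmt1 encode the sarcomeric and the ubiquitous isoform of the mitochondrial intermembrane space. Gamt encodes the methyltransferase of the last step of creatine synthesis, and Slc6a8 the transporter through which cells take creatine up. The 6 genes were taken by symbol, and all 6 of them were found among the 27998 genes of each of the 10 matrices.

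All animals were wild-type C57Bl/6J mice. The cells of E8.5 and E10.5 came from embryos whose head and limbs had been cut off, so they include many cells from outside the heart. Those of every later stage came from whole hearts, and the paper does not state how many animals went into a library. E10.5, E12.5, E14.5 and E16.5 had 2 libraries each, E8.5 had 1 matrix, and the P3 matrix holds barcodes with the suffixes 1 and 2 that no label ties to a sample, so E8.5 and P3 entered no test. The record does not say that libraries of 1 stage came from separate litters, so the p-values measure the spread between these libraries only.

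Each matrix gives counts of unique molecular identifiers (UMIs), 1 per captured transcript, by gene and barcode. Barcodes with at least 2000 UMIs and at least 1% of them from mitochondrial genes were kept, 67411 in all and 3984 to 12132 per matrix. A barcode was taken as a cardiomyocyte when Tnnt2, the cardiac troponin T gene, reached 1500 UMIs per 1000000 (CPM) in hearts or 500 CPM in embryos. This gave 151 cardiomyocytes in the E8.5 matrix, 191 and 201 in the E10.5 libraries, and 1733 to 7145 per heart matrix, 24047 in total, with a median of 13940 to 25403 UMIs. All 8 other cardiomyocyte markers were higher in these cells than in the remaining ones in every matrix, and their summed level was 9546 to 29850 CPM against 25.7 to 1226 CPM. At E10.5, however, 23 of the 191 and 22 of the 201 gated cells held at least 3 of 8 skeletal muscle markers (among them Myog, Myod1 and Mylpf), against 1 cell at E8.5 and 0 in the heart matrices. These cells held a median of 3 and 4 of the 8 cardiomyocyte markers, against 7 in the other gated cells, and the E10.5 levels of the members are therefore given with and without them. Cells with other marker sets are called by their gate (such as fibroblast-gated) below.

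The 250 bases upstream of the transcription start are shown for the 2 cytosolic isoforms and for Ckmt2, because these 3 genes moved apart over development. The sequences are from the RefSeq promoter table of GRCm38.p6, on the gene's own strand, with E-boxes (CANNTG, which reads the same on both strands) and the MEF2 motif in capitals. Ckm is at chr7:19410844-19411093 (+), Ckb at chr12:111672339-111672588 (-) and Ckmt2 at chr13:91876886-91877135 (-).

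Ckm: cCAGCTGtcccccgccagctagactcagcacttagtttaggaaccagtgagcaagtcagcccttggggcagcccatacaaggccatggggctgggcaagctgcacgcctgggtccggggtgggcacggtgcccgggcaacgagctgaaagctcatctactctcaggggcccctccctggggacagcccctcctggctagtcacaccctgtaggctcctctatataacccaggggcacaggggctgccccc

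Ckb: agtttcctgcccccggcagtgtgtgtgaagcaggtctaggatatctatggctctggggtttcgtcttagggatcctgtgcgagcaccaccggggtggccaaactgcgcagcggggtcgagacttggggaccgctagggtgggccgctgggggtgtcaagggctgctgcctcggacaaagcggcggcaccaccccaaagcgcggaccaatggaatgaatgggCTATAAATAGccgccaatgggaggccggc

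Ckmt2: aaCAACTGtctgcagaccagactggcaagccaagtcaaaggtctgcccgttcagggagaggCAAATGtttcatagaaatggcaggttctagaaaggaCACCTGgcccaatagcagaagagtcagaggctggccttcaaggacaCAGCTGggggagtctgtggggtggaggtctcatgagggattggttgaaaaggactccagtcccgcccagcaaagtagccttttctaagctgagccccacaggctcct

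The Ckm window holds 1 E-box, CAGCTG, from -249 to -244. The Ckmt2 window holds 4 E-boxes, of which the one from -107 to -102 is CAGCTG. The Ckb window holds no E-box and 1 match to the MEF2 motif, from -29 to -20, which overlaps the TATA box (TATAAA) from -28 to -23. Among all 32851 promoter windows of the same length, 66.2% held an E-box, 13.0% CAGCTG, 1.69% the MEF2 motif and 12.4% TATAAA. The matches describe the letters of these windows and not binding. In the annotation of the same build (GENCODE vM21), Ckm spans 19404776 to 19422841 on chromosome 7, Ckb 111669361 to 111672338 on chromosome 12, Ckmt1 121357714 to 121363737 on chromosome 2, Ckmt2 91853387 to 91876885 on chromosome 13, Gamt 80258151 to 80261012 on chromosome 10, and Slc6a8 73673150 to 73682502 on chromosome X. The Ckm window lies inside this span, so its RefSeq start is not the start of the GENCODE gene. The Ckb and Ckmt2 windows adjoin their genes.

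Ckm went from nearly undetected to the highest member by far. In cardiomyocytes it stood at 0.513 CPM at E8.5, which rests on 2 UMIs (95% exact Poisson interval 0.0621 to 1.85 CPM, which like every interval here covers counting error only). The 2 libraries gave 5.77 and 2.96 CPM at E10.5 and 42.0 and 42.4 CPM at E12.5. The E14.5 libraries held 582.5 and 618 CPM, the E16.5 libraries 2361 and 2551 CPM and the P3 matrix 2389.6 CPM. The libraries of successive stages did not overlap up to E16.5, while the pooled P3 matrix lay between the libraries of E16.5. Its 2 suffixes gave 2543 and 1999 CPM, and the second lay below both E16.5 libraries. The paper, which looked at batches by eye, reports significant batch differences at P3 only. The mean rose 14.2-fold from E12.5 to E14.5 and 4.09-fold from E14.5 to E16.5. Without the cells with skeletal muscle markers, which held 10 of the 18 and 4 of the 9 Ckm UMIs of E10.5, Ckm stood at 2.86 and 1.84 CPM at E10.5.

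Ckb started high and stayed between 149.5 and 204 CPM up to E16.5. The E8.5 matrix held 185 CPM. The E10.5 libraries held 204 and 169 CPM (192.5 and 163 CPM without the cells with skeletal muscle markers), and those of E12.5 held 190.6 and 189.7 CPM. Those of E14.5 had 149.5 and 153 CPM and those of E16.5 had 177 and 182 CPM. The E14.5 libraries were the lowest of the embryonic ones, and the E8.5 and E12.5 values lay between the E10.5 libraries. P3 was below every embryonic library with 85.4 CPM, which is 0.476 of the E16.5 mean.

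**Figure D1:**
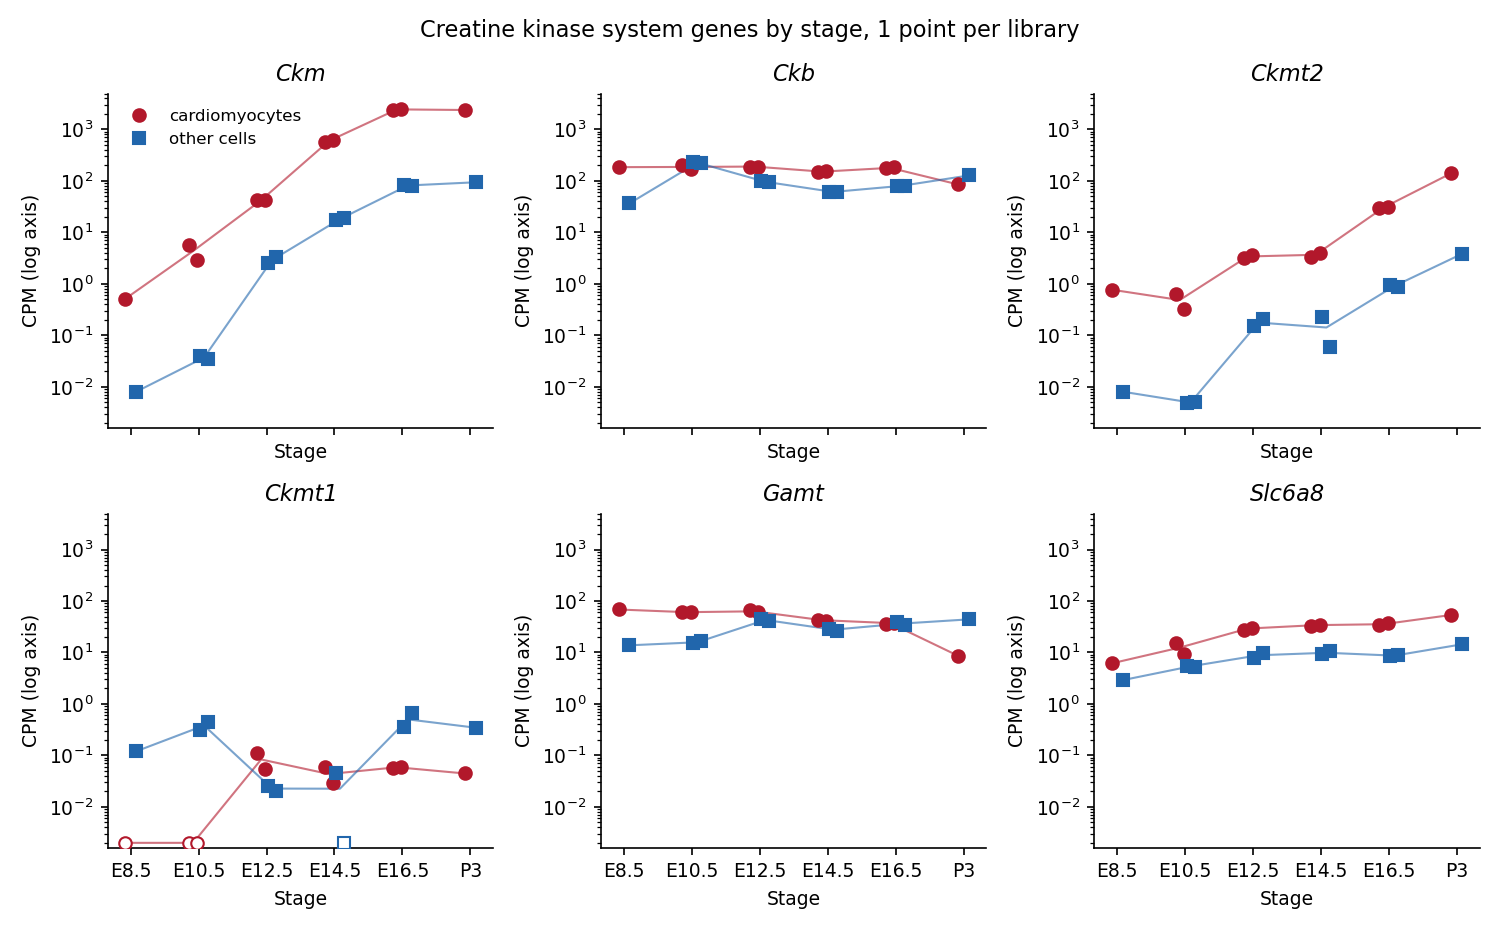
Level of the 6 members in CPM (log axis) by stage, with 1 point per library, in cardiomyocytes (red circles) and all other cells (blue squares). Lines join the stage means, and open symbols at the lower edge stand for 0 UMIs. Ckm in cardiomyocytes goes from 0.513 CPM at E8.5 to 2389.6 CPM at P3, whereas Ckb stays between 149.5 and 204 CPM until E16.5.

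Stages that had 2 libraries were tested against each other by the quasi-likelihood method of edgeR with Benjamini-Hochberg adjustment over 14810 genes, and Ckmt1 was too low to enter. Successive contrasts share libraries. Between E10.5 and E12.5, which also differ in tissue and gate, 43.0% of all genes tested were called at an adjusted p under 0.05, and 3 of the 5 members tested rose (23.0% of all genes rose). Ckm rose by 3.38 ± 0.19 (log2 change ± SE, adjusted p = 2.26e-10), Ckmt2 by 2.91 ± 0.50 (adjusted p = 0.000137) and Slc6a8 by 1.34 ± 0.15 (adjusted p = 1.62e-06). Ckb (0.14 ± 0.08, adjusted p = 0.2) and Gamt (0.17 ± 0.10, adjusted p = 0.166) were not called. With the cells with skeletal muscle markers left out, Ckm rose by 4.29, Ckmt2 by 2.77 and Slc6a8 by 1.21, and both Ckb (0.23 ± 0.08, adjusted p = 0.0372) and Gamt (0.59 ± 0.11, adjusted p = 0.00029) passed the threshold as higher at E12.5. Ckb was also called with 1 library left out, E10.5 replicate 1 (0.28, adjusted p = 0.04), and Gamt without E12.5 replicate 2 (0.27, adjusted p = 0.023). Leaving out another library moved them the other way, Ckb to 0.029 without E10.5 replicate 2 (adjusted p = 0.841) and Gamt to 0.087 without E12.5 replicate 1 (adjusted p = 0.471). With no floor on the mitochondrial share both were called (0.24, adjusted p = 0.0224, and 0.30, adjusted p = 0.0173).

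From E12.5 to E14.5, where 33.6% of genes were called, Ckm rose by 3.84 ± 0.09 (edgeR, adjusted p = 4.46e-15). Ckb fell by 0.32 ± 0.08 on the log2 scale (adjusted p = 0.00337) and Gamt fell by 0.56 ± 0.07 (adjusted p = 9.91e-06). Slc6a8 rose by 0.23 ± 0.07 (adjusted p = 0.0251), and Ckmt2 was not called (0.10 ± 0.12, adjusted p = 0.565). The Slc6a8 call was lost without E12.5 replicate 1 (adjusted p = 0.11) and without either E14.5 library (adjusted p = 0.095 and 0.22), and the Ckb call without E14.5 replicate 1 (-0.30, adjusted p = 0.066).

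From E14.5 to E16.5, where 38.5% of genes were called and 19.6% rose, 4 of the 5 members tested rose. Ckmt2 rose most, by 3.26 ± 0.09 (edgeR, adjusted p = 2.92e-14), followed by Ckm with 2.23 ± 0.08 (adjusted p = 2.13e-12) and Ckb with 0.45 ± 0.08 (adjusted p = 0.000148). Slc6a8 rose by 0.26 ± 0.07 (adjusted p = 0.00869) and Gamt was not called (0.01 ± 0.07, adjusted p = 0.938). The scaling bears on the small changes here: edgeR's TMM factors moved the median gene by 0.20 (log2) against total UMIs, and 50.9% of the called genes were up with TMM against 19.99% without it. On total UMIs Slc6a8 was not called (0.06, adjusted p = 0.55), Gamt fell by 0.19 (adjusted p = 0.0297) and Ckb rose by 0.25. Slc6a8 was also lost without E14.5 replicate 1 (adjusted p = 0.12) and without E16.5 replicate 2 (adjusted p = 0.074).

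Over the whole embryonic heart series, from E12.5 to E16.5 (57.4% of genes called), Ckm rose by 6.07 ± 0.10, Ckmt2 by 3.36 ± 0.09 and Slc6a8 by 0.49 ± 0.07, and Gamt fell by 0.56 ± 0.07. Ckb did not pass the test (0.12 ± 0.08, edgeR, adjusted p = 0.171). The TMM shift was 0.21 (log2), and the share of called genes that were up was 50.7% with TMM and 29.0% without it.

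The isoform of the cytosolic pool changed over between E12.5 and E14.5. Of the summed Ckm and Ckb UMIs in cardiomyocytes, Ckm made up 0.276% in the E8.5 matrix (exact 95% interval 0.0335 to 0.994%), and 2.74 and 1.72% in the E10.5 libraries. It made up 18.05 and 18.3% in the E12.5 libraries, 79.6 and 80.1% in those of E14.5, 93.0 and 93.3% in those of E16.5, and 96.55% at P3. Stages differed by far more than their 2 libraries did from E12.5 on. Without the cells with skeletal muscle markers the E10.5 shares were 1.47 and 1.11%. The sum of these 2 genes and the mitochondrial Ckmt1 and Ckmt2 was 236 CPM in both E12.5 libraries. It was 735.5 and 775 CPM in those of E14.5, and 2568 and 2764 CPM in those of E16.5, while Ckb alone stayed between 149.5 and 190.6 CPM.

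Single cells showed the same order when each was thinned to 2000 UMIs. More Ckm than Ckb UMIs were found in 4.905 and 5.06% of E12.5 cardiomyocytes, 44.7 and 46.4% of those of E14.5, 91.2 and 91.8% of those of E16.5, and 94.5% of those of P3. More Ckb than Ckm UMIs were found in 27.2 and 27.5% (E12.5), 9.98 and 10.2% (E14.5) and 1.14 and 0.804% (E16.5) of the cells. Neither gene had a UMI in 66.8 and 66.0% of the thinned cells at E12.5 and in 39.7 and 38.8% at E14.5, so the order within a cell could often not be read at this depth. Both genes had a UMI in the same thinned cell in 12.7 and 13.2% of the E14.5 cardiomyocytes.

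**Figure D2:**
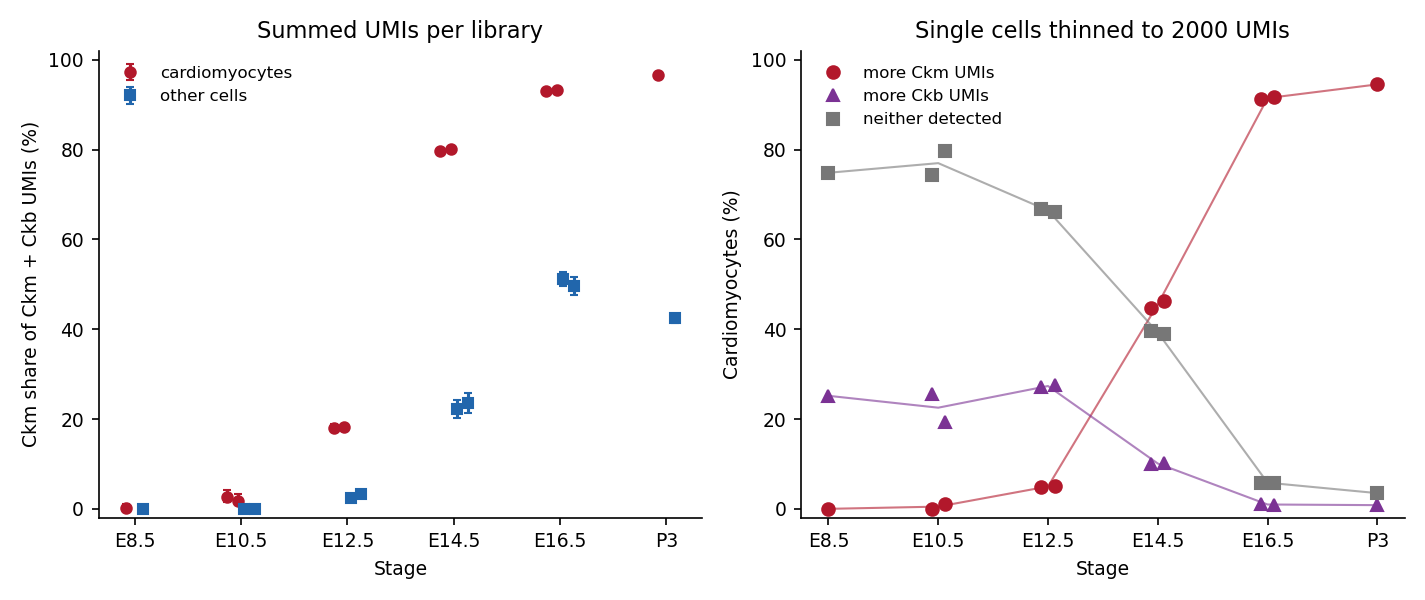
Left, Ckm in percent of the summed Ckm and Ckb UMIs by stage, per library, in cardiomyocytes (red) and other cells (blue), with exact 95% binomial intervals as bars. Right, percent of cardiomyocytes with more Ckm UMIs, more Ckb UMIs or neither after each cell was thinned to 2000 UMIs. The cardiomyocyte share goes from 18.3% to 79.6% between the nearest libraries of E12.5 and E14.5.

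Ckm varied widely among the E14.5 cells. The 10th percentile was 0 CPM, the median 382.5 and 403.5 CPM, and the 90th percentile 1254 and 1352 CPM in the 2 libraries. At E16.5 the 10th percentile was 837 and 793 CPM and the 90th 3691 and 4110.5 CPM, and at P3 they were 1099 and 3538 CPM. In thinned cells, Ckm variance over mean was 1.28 and 1.33 (E12.5), 1.87 and 1.83 (E14.5), 1.97 and 2.13 (E16.5) and 1.64 (P3). The means were 0.07559 and 0.08048 UMIs (E12.5), 1.047 and 1.1 (E14.5), 4.462 and 4.766 (E16.5) and 4.659 (P3). These ratios were not corrected for the mean, so they give no order of the stages by relative spread. A Ckm UMI was present in 51.0 and 52.3% of thinned cardiomyocytes at E14.5 (80.9 and 78.4% before thinning), against 3.91 and 3.48% of the other cells.

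Ckmt2, the sarcomeric mitochondrial kinase, did not pass the test from E12.5 to E14.5, where Ckm rose, and was higher at E16.5 and again at P3. It stood at 0.769 CPM in the E8.5 matrix (3 UMIs), and 0.641 and 0.329 CPM at E10.5 (2 and 1 UMIs, none of them in the cells with skeletal muscle markers, and 0.716 and 0.368 CPM without those cells). The E12.5 libraries held 3.22 and 3.59 CPM and those of E14.5 held 3.39 and 3.96 CPM, which overlap. Ckmt2 then reached 29.8 and 30.8 CPM in the E16.5 libraries and 141.5 CPM in the P3 matrix, each above all earlier values. The mean was 1.08-fold from E12.5 to E14.5 and 8.25-fold from E14.5 to E16.5, and P3 stood 4.67-fold above E16.5. In thinned cardiomyocytes a Ckmt2 UMI was present in 0.494 and 0.544% (E14.5), 4.74 and 5.14% (E16.5) and 21.8% (P3), against 0.865% of the other cells of P3.

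Ckmt1, the ubiquitous mitochondrial kinase, was at or near 0 in cardiomyocytes. It had 0 UMIs at E8.5 and E10.5, where the limit of 3 counts that a count of 0 allows is 0.769 to 0.987 CPM. In the heart matrices it had 1 to 5 UMIs, which is at most 0.1125 CPM. Ckmt2 therefore held nearly all mitochondrial kinase UMIs from E12.5 on.

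Gamt was lower at E14.5 and E16.5 than at E12.5, and lowest at P3. Its level in cardiomyocytes was 68.5 CPM in the E8.5 matrix, and the E10.5 libraries held 59.9 and 61.5 CPM. Those of E12.5 held 65.9 and 60.3 CPM, followed by 43.45 and 41.45 CPM (E14.5) and 36.4 and 38.0 CPM (E16.5). The E10.5 and E12.5 libraries overlapped, and the E8.5 value lay above them (interval 60.5 to 77.2 CPM). The E14.5 and E16.5 libraries lay below all of these, and apart from each other in CPM, although the test between these 2 stages did not call Gamt. P3 held 8.62 CPM, 0.232 of the E16.5 mean. At E10.5 Gamt was highest in the gated cells with skeletal muscle markers, at 202 and 171 CPM (23 and 22 cells), and without them it stood at 43.3 and 48.6 CPM, below both E12.5 libraries, and the lower value lay between those of E14.5.

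Slc6a8, the creatine transporter, was higher at later stages. It stood at 6.155 CPM in the E8.5 matrix, and the E10.5 libraries held 15.4 and 9.54 CPM (16.8 and 10.7 CPM without the cells with skeletal muscle markers). The heart libraries held 27.9 and 30.4 CPM (E12.5), 33.35 and 34.7 CPM (E14.5) and 34.2 and 36.8 CPM (E16.5), and P3 held 53.7 CPM. The libraries of E14.5 overlapped those of E16.5, and P3 was above every other matrix. The gene of synthesis and the gene of uptake were at 68.5 and 6.155 CPM at E8.5 and at 8.62 and 53.7 CPM at P3.

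By level, the E8.5 cardiomyocytes ordered as Ckb, Gamt, Slc6a8, Ckmt2 and Ckm, of which the last 2 did not differ beyond their counting intervals. The P3 cardiomyocytes ordered as Ckm, Ckmt2, Ckb, Slc6a8 and Gamt. Mitochondrial genes moved along with stage: their median share of UMIs in cardiomyocytes went from 2.45% at E8.5 to 22.01% at P3. The paper filtered P3 cells at 20%, which the median P3 cardiomyocyte here exceeded, and the P3 levels are given without that ceiling. Counted over genes other than the mitochondrial ones, P3 stood at 1.09 of the E16.5 mean for Ckm, 0.534 for Ckb, 5.24 for Ckmt2, 0.26 for Gamt and 1.70 for Slc6a8. The barcodes of the 2 suffixes of P3 gave 2543 and 1999 CPM for Ckm, 80.95 and 96.8 CPM for Ckb, 148 and 124 CPM for Ckmt2, 8.39 and 9.20 CPM for Gamt and 53.5 and 54.2 CPM for Slc6a8, with medians of 19007 and 10398 UMIs per cell.

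Chambers were told apart by the myosin light chains, Myl2 of the ventricle and Myl7, which is high in the atrium. Heart cardiomyocytes with at least 5 of these UMIs were ventricular-gated when Myl2 made up 0.5 or more of them and atrial-gated when it made up 0.1 or less. This gave 1366 to 5900 ventricular-gated and 147 to 1196 atrial-gated cells per matrix. All 8 atrial markers were higher in the atrial-gated cells of every heart matrix, and 7 or 8 of the 8 ventricular markers in the ventricular-gated cells. Libraries were tested as blocks over 13587 genes.

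Ckm was higher in the ventricular-gated cells of every library. At E12.5 the levels were 45.6 and 45.7 CPM in the ventricle and 23.4 and 16.55 CPM in the atrium. At E14.5 they were 617 and 648 CPM against 185 and 134 CPM, and at E16.5 they were 2425 and 2636 CPM against 1709 and 1768 CPM. The ventricular and atrial values did not overlap at any stage, and P3 held 2533 against 1688 CPM.

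Ckb was higher in the ventricle as well, and its atrial level was lower after E12.5. The atrial-gated cells held 124 and 118 CPM (E12.5), 71.2 and 80.2 CPM (E14.5) and 72.5 and 76.8 CPM (E16.5), while the ventricular-gated cells held 199.8 and 198 CPM, 158 and 159 CPM, and 186 and 193 CPM. At P3 the 2 chambers stood at 87.7 CPM (ventricle) and 73.6 CPM (atrium). Ckmt2 was at 31.3 and 32.2 CPM in the ventricle and 13.5 and 17.1 CPM in the atrium at E16.5, and at 162 against 40.6 CPM at P3, the widest chamber ratio of a member in that matrix. Before E16.5 the atrial Ckmt2 level rests on 5 to 14 UMIs per library.

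Over the mean of the 3 embryonic heart stages, 53.2% of all genes tested were called and 28.2% were higher in the ventricle, as were 4 of the 5 members tested. The log2 difference was 1.40 ± 0.05 for Ckm (edgeR, adjusted p = 7.66e-20), 1.21 ± 0.03 for Ckb (adjusted p = 2.38e-22), 1.03 ± 0.15 for Ckmt2 (adjusted p = 8.36e-07) and 0.59 ± 0.07 for Slc6a8 (adjusted p = 1.73e-08). Gamt was not called (-0.06 ± 0.05, adjusted p = 0.309; -0.14, adjusted p = 0.00945 with no floor on the mitochondrial share), with levels of 63.9 and 58.3 CPM in the ventricle and 79.2 and 73.7 CPM in the atrium at E12.5 and of 36.5 and 38.4 CPM against 37.8 and 35.2 CPM at E16.5. The TMM shift was 0.16 (log2), with 53.1% of called genes up with TMM and 30.6% without it, and on total UMIs Gamt was lower in the ventricle (-0.22, adjusted p = 0.00023). The 4 other calls held on total UMIs. At E12.5 alone, where 38.0% of genes were called, Gamt was lower in the ventricle (-0.16 ± 0.06, adjusted p = 0.0424), a call lost without either E12.5 library (adjusted p = 0.167 and 0.217), without E16.5 replicate 1 (0.0512) and with DESeq2 (0.23).

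The chamber gap of Ckm was not the same at each stage. It was 1.37 ± 0.10 at E12.5 (log2), 2.145 ± 0.08 at E14.5 and 0.69 ± 0.07 at E16.5. The fall from E14.5 to E16.5 was -1.45 ± 0.10 (edgeR, adjusted p = 4.59e-11), where 7.81% of genes differed, and it stayed called in all alternatives run. The rise from E12.5 to E14.5 was 0.78 ± 0.13 (adjusted p = 0.000139; 7.56% of genes called), and without E12.5 replicate 1 it was 0.50 (adjusted p = 0.153). The change from E12.5 to E16.5 was -0.67 ± 0.12 (adjusted p = 0.000131; 17.4% of genes called), and without E12.5 replicate 2 it was -0.39 (adjusted p = 0.151). With chambers told by Myl3 against Sln it was -0.23 (adjusted p = 0.65). The gap of Ckb widened by 0.62 ± 0.07 from E12.5 to E16.5 (adjusted p = 3.38e-07).

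Within a chamber the isoform share moved at its own pace. Ckm made up 15.9 and 12.3% of the 2 cytosolic kinases in the atrium at E12.5 and 18.6 and 18.8% in the ventricle. At E14.5 it made up 72.2 and 62.6% in the atrium and 79.6 and 80.3% in the ventricle. At E16.5 the order had turned, with 95.9 and 95.8% in the atrium and 92.9 and 93.2% in the ventricle. At P3 the ventricle was the higher one again, with 96.65% against 95.8% in the atrium.

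**Figure D3:**
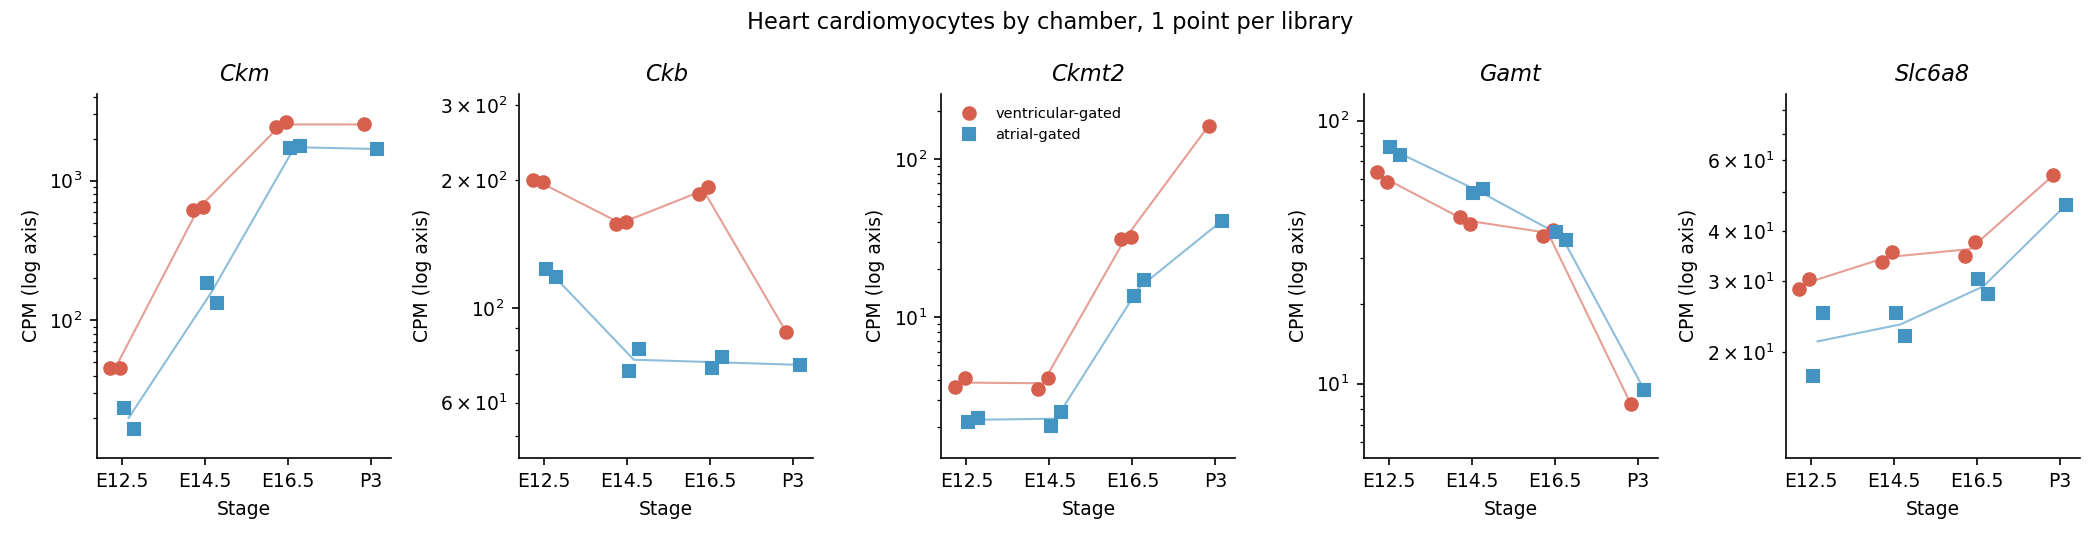
Level in CPM (log axis, a range of its own per panel) of 5 members in ventricular-gated (red circles) and atrial-gated (blue squares) cardiomyocytes of hearts from E12.5 to P3, with 1 point per library and lines through the stage means. The Ckm chambers are farthest apart at E14.5, 617 and 648 against 185 and 134 CPM, and the atrial Ckb level is lower at E14.5 than at E12.5.

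In the other cells, Ckm was far below its level in cardiomyocytes. It stood at 0.03895 and 0.0351 CPM in the other cells of E10.5 and at 2.515 and 3.27 CPM in those of E12.5. Later it stood at 17.3 and 18.9 CPM (E14.5), 83.0 and 80.0 CPM (E16.5) and 94.2 CPM (P3). From E14.5 to P3 this was 2.97 to 3.94% of the cardiomyocyte level of the same matrix, beside 3.05 to 3.45% for Tnni3 and 2.78 to 3.37% for Actc1, which are sarcomere genes of cardiomyocytes. For Myh6, the alpha myosin heavy chain, the share went the other way, from 4.175 and 3.83% at E14.5 to 2.46 and 2.05% at E16.5 and 1.501% at P3. Barcodes with 10 to 100 UMIs, which mostly hold free RNA, had 49.4 and 47.1 CPM of Ckm (E12.5), 411 and 526 CPM (E14.5) and 1882 and 2064 CPM (E16.5). Endothelial-, fibroblast-, epicardial-, mural-, macrophage- and erythroid-gated cells of E16.5 held between 54.9 and 93.0 CPM. Cells that met no marker gate held more, 140.0 and 148.7 CPM (761 and 553 cells, with medians of 3649 and 3127 UMIs per cell), and no test was run between these classes. At earlier heart stages erythroid-gated cells held 18.85 and 46.3% of the cardiomyocyte level of Ckm at E12.5 (10 and 39 UMIs) and 10.8 and 13.5% at E14.5. Cardiomyocyte genes stood as high in these cells, with 28.1 and 38.6% for Tnni3 and 36.7 and 62.0% for Myh6 at E12.5, and 16.2 and 19.8% for Tnni3 at E14.5. All other cells together held 5.99 and 7.72% at E12.5, beside 3.97 and 5.70% for Tnni3. The part of free RNA in these levels was not tested.

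Cardiomyocytes were tested against all other cells, with the library as block, over 16587 genes. Over the mean of the 3 embryonic heart stages, 83.0% of genes were called and 40.7% were higher in cardiomyocytes, as were 5 of the 6 members: Ckm by 4.79 ± 0.04 (log2, edgeR, adjusted p = 2.67e-27), Ckmt2 by 4.79 ± 0.13, Slc6a8 by 2.03 ± 0.05, Ckb by 1.34 ± 0.03 and Gamt by 0.58 ± 0.04. The gate itself is a muscle gene, and nearly all genes differ, so these calls are read as a description of size. The TMM shift was 0.19 (log2). The excess of Gamt was smaller at E16.5, with 36.4 and 38.0 CPM against 39.0 and 33.7 CPM in other cells, which overlap (0.26 ± 0.07, adjusted p = 0.00138, 0.02 on total UMIs, adjusted p = 0.776, 0.13 without E16.5 replicate 2, adjusted p = 0.149, and 0.45 without E16.5 replicate 1). At P3, in no test, other cells held more than cardiomyocytes of both Ckb (127.8 against 85.4 CPM) and Gamt (44.05 against 8.62 CPM). The 2 suffixes differed in Ckb, with 94.0 and 161 CPM in other cells against 80.95 and 96.8 CPM in cardiomyocytes. For Gamt they gave 39.8 and 48.2 CPM against 8.39 and 9.20 CPM. Ckmt1 was not called (0.03 ± 0.29, adjusted p = 0.955). At E16.5 alone, where 74.9% of genes were called, it was lower in cardiomyocytes, with 4 and 3 UMIs against 8 and 10 UMIs in the far fewer other cells (-2.74 ± 0.69, adjusted p = 0.00141, lost without E16.5 replicate 2 at 0.053), and epicardial-gated cells held 9.54 and 16.1 CPM of it (44 and 22 cells). From E12.5 to E16.5 the difference between cardiomyocytes and other cells changed for 40.5% of genes and for 5 members, by 1.16 ± 0.12 for Ckm, 0.28 for Ckb, 0.41 for Slc6a8, -0.43 for Gamt and -4.61 for Ckmt1, which rests on these few UMIs. The last 3 were each lost without 1 library: Slc6a8 without E12.5 replicate 2 (adjusted p = 0.167), Gamt without E16.5 replicate 1 (0.127) and Ckmt1 without E12.5 replicate 1 (0.116).

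In the E10.5 embryos Ckb had the opposite sign, and 48.3% of genes were called there. Other cells held 234 and 219.9 CPM against 204 and 169 CPM in cardiomyocytes (-0.34 ± 0.06, edgeR, adjusted p = 2.17e-05). Without the cells with skeletal muscle markers the fit gave -0.62 ± 0.05, although the cardiomyocyte levels were only a little lower, at 192.5 and 163 CPM. The call held with any 1 library left out, but the difference was -0.64 without E10.5 replicate 1, -0.55 without E12.5 replicate 1 and -0.54 without E16.5 replicate 1. The E12.5 and E16.5 libraries hold no E10.5 cells, so the size of this difference depends on the set fitted by more than its SE. Why it moved was not tested, and the larger value is not read as an effect of the cells left out. Ckb was highest in cells with neural markers. Neural progenitor-gated cells held 537 and 513 CPM (2747 and 2548 cells) and neuron-gated cells 388.6 and 390.0 CPM, while endothelial-, fibroblast-, paraxial mesoderm- and surface epithelium-gated cells lay between 43.7 and 56.7 CPM. At E8.5 the neural progenitor-gated cells held 62.3 CPM and the neuron-gated cells 210.3 CPM (34 cells). All other cells of E8.5 together held 36.65 CPM of Ckb, below the 185 CPM of the cardiomyocytes, and 13.8 against 68.5 CPM of Gamt, in no test. Gamt was higher in the cardiomyocytes of E10.5 than in the other cells by 1.88 ± 0.10 (adjusted p = 1.53e-12) and by 1.28 ± 0.11 without the cells with skeletal muscle markers, and the neuron-gated cells held 67.6 and 75.8 CPM. Ckmt1 was highest in the neuron-gated cells there, at 2.70 and 3.32 CPM.

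In hearts, macrophage-gated cells had more Ckb than cardiomyocytes had. They held 263.1 and 262.9 CPM (E14.5), 311.5 and 377 CPM (E16.5) and 258 CPM (P3), from 41 to 175 cells per matrix. Endothelial-gated cells went from 98.5 and 105 CPM at E12.5 to 28.9 and 28.4 CPM at E14.5, and fibroblast-gated cells stood at 105 and 112.5 CPM at E16.5 and 173 CPM at P3. Mural-gated cells held 156 and 113 CPM of Ckb at E16.5 and 204 CPM at P3, and had the highest Gamt of any gated class of the hearts, at 122 and 109.6 CPM at E16.5 and 138 CPM at P3, where cardiomyocytes were at 8.62 CPM. Slc6a8 reached at most 22.9 CPM in a gated class of the hearts, below the 27.9 CPM of the lowest heart library of cardiomyocytes. No test was run between these classes.

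**Figure D4:**
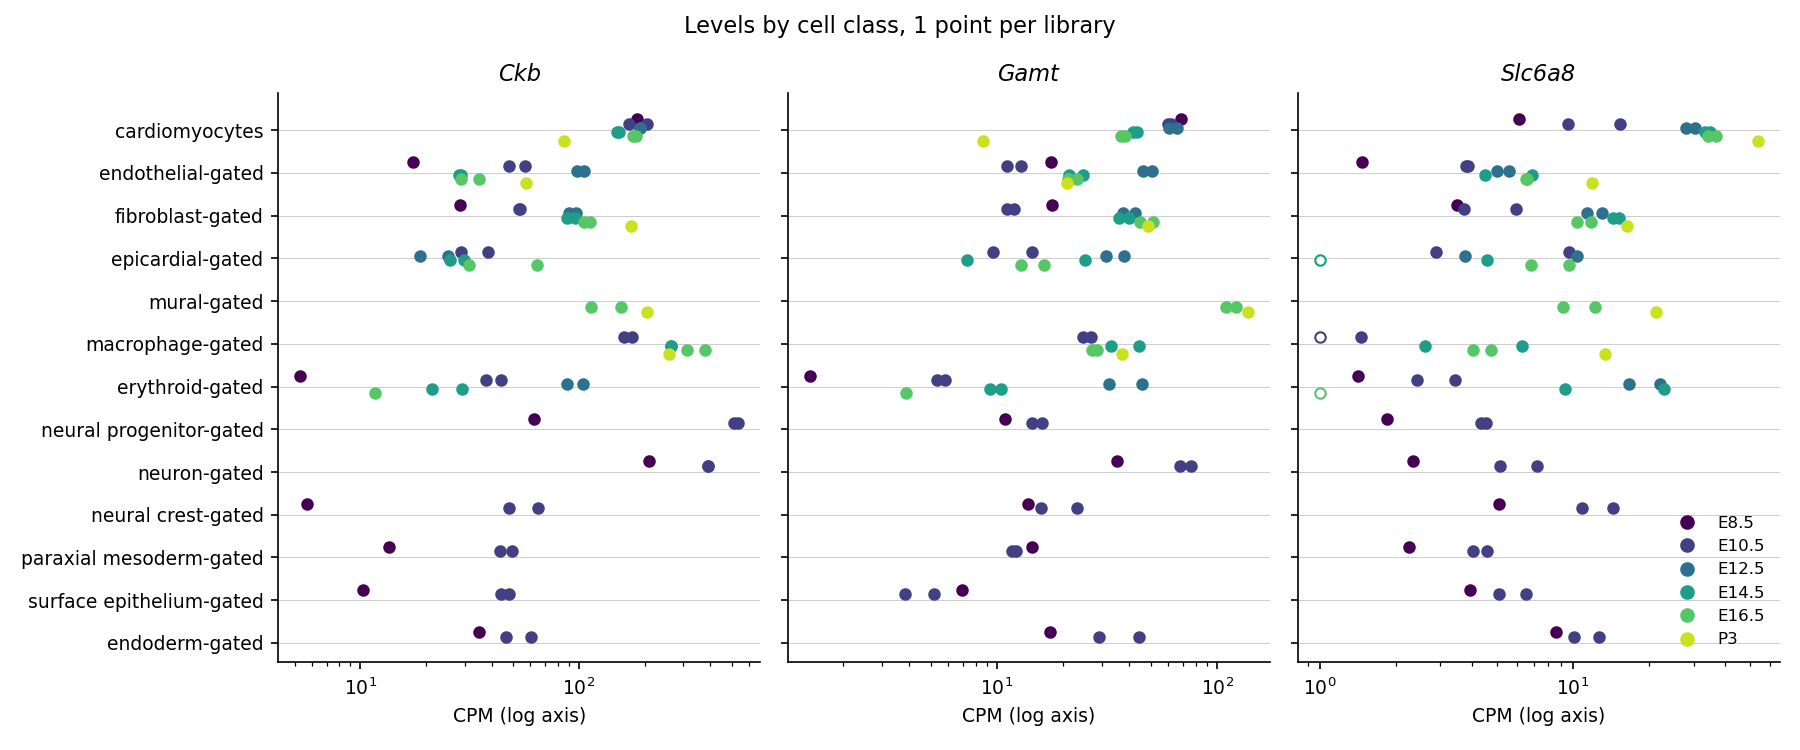
Level in CPM (log axis) of Ckb, Gamt and Slc6a8 in cardiomyocytes and in cells gated by marker lists, with 1 point per library coloured by stage. Only classes with at least 20 cells in a library are drawn, and open symbols at 1 CPM stand for 0 UMIs. Neural progenitor-gated cells of E10.5 hold the highest Ckb, 537 and 513 CPM, and among the classes drawn mural-gated cells of E16.5 and P3 the highest Gamt, 109.6 to 138 CPM.

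Ventricular cardiomyocytes were also compared by their level of Nppa, the natriuretic peptide gene that marks trabecular myocardium. This comparison was chosen after values had been seen. In each library the upper tertile of Nppa was set against the lower one. At E12.5 Ckmt2 stood at 7.51 and 9.31 CPM in the upper tertile and at 1.345 and 1.52 CPM in the lower one. Ckm went the other way, with 34.5 and 36.4 CPM against 54.1 and 57.4 CPM. The tertiles did not overlap for either gene, and their median UMIs per cell were alike (26870 and 25096 against 25876 and 24907).

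At E12.5, where 38.0% of genes were called, Ckmt2 was higher in the upper tertile by 2.53 ± 0.21 (log2, edgeR, adjusted p = 9.7e-10), Ckb by 0.24 ± 0.04 (adjusted p = 5.44e-05) and Ckm was lower (-0.67 ± 0.05, adjusted p = 2.57e-11). Slc6a8 was also called (0.20 ± 0.08, adjusted p = 0.0376, lost without E12.5 replicate 1 at 0.35, and 0.33 without replicate 2) and Gamt was not (adjusted p = 0.329). At E16.5, where 3.38% were called, Ckmt2 stood at 35.9 and 35.0 CPM against 28.0 and 31.7 CPM (0.22 ± 0.07, adjusted p = 0.0994), and Ckm was lower by a small margin (-0.15 ± 0.03, adjusted p = 0.0109, lost without either E16.5 library at 0.15 and 0.51). From E12.5 to E16.5 the Ckmt2 difference fell by 2.31 ± 0.23 (adjusted p = 7.57e-08) and the Ckm difference moved by 0.52 ± 0.06 towards 0 (adjusted p = 2.86e-07), where 20.7% of genes differed. At P3 the tertiles held 180 against 149.8 CPM of Ckmt2 and 2560.5 against 2452 CPM of Ckm, with medians of 18828 and 11457 UMIs per cell.

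**Figure D5:**
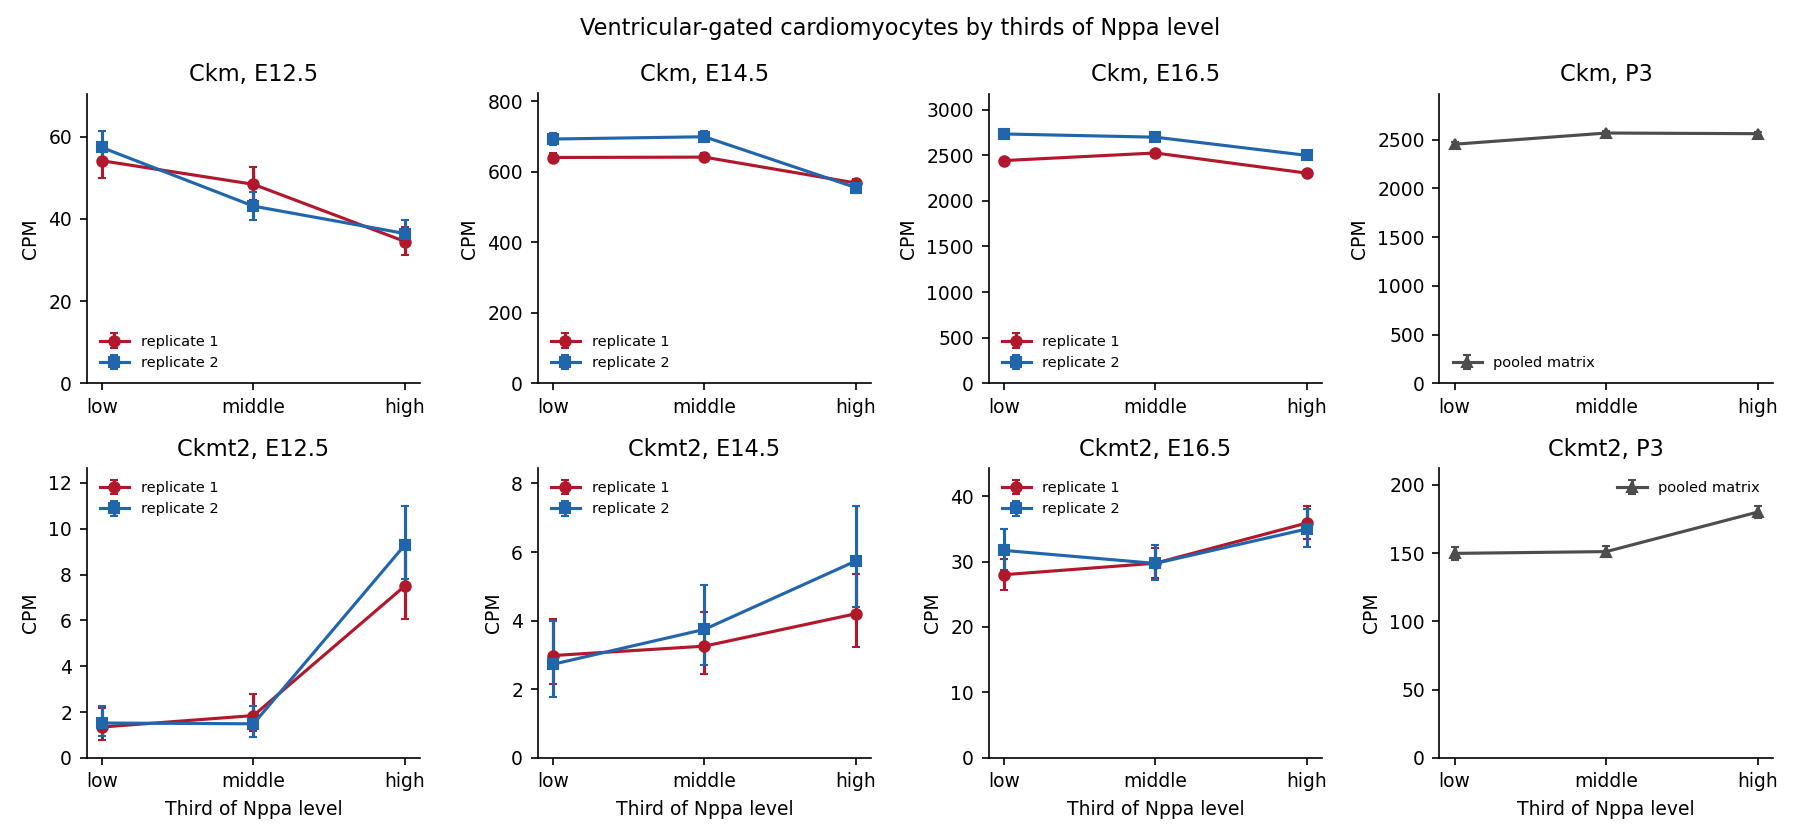
Level in CPM of Ckm (upper row) and Ckmt2 (lower row) in ventricular-gated cardiomyocytes split in each library into low, middle and high tertiles of Nppa level, by stage, with exact 95% Poisson intervals as bars. At E12.5 Ckmt2 is 7.51 and 9.31 CPM in the high tertile against 1.345 and 1.52 CPM in the low one, and Ckm falls from low to high.

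Cells with at least 200 CPM of 8 cell cycle genes (such as Mki67 and Top2a) were set against the rest of the ventricular-gated cells, again after values had been seen. Over the mean of the embryonic hearts, 58.7% of genes were called and 30.4% were lower in the cycling cells, as were all 5 members tested. Gamt differed most (-0.58 ± 0.03, edgeR, adjusted p = 1.15e-15), followed by Ckmt2 (-0.42 ± 0.09), Ckm (-0.40 ± 0.02), Ckb (-0.29 ± 0.02) and Slc6a8 (-0.25 ± 0.03). The Ckmt2 difference was -0.99 ± 0.17 at E12.5 (adjusted p = 4.65e-05; -0.66, adjusted p = 0.0616 without E12.5 replicate 2) and was not called at E14.5 (-0.15 ± 0.18, adjusted p = 0.553) or at E16.5 (-0.11 ± 0.06, adjusted p = 0.172). At P3 the cycling cells held more Ckb (100.6 against 86.6 CPM) and Gamt (9.675 against 8.26 CPM) than the others. From E12.5 to E16.5 the difference changed for 15.2% of genes and 4 of these members (-0.27 for Ckm, 0.22 for Ckb, 0.88 for Ckmt2 and -0.23 for Gamt), and each of the 4 was lost when 1 library was left out (Ckm, Ckmt2 and Gamt without E12.5 replicate 2, Ckb without E12.5 replicate 1 or either E16.5 library). At E16.5 Gamt stood at 28.4 and 29.1 CPM in the cycling cells and at 41.6 and 43.9 CPM in the others, and Ckm at 2024 and 2219.8 CPM against 2679 and 2882 CPM. Neither pair overlapped. Without TMM 61.7% of the called genes were higher in cycling cells, against 48.2% with it.

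A list of 24 genes of the wider energy pathway was read beside the members, and all 24 were tested. From E12.5 to E16.5, where 57.4% of all genes were called, 14 rose and 5 fell in cardiomyocytes, with a median log2 change of 0.32 against 0.00 over all genes. In the chamber contrast (53.2% called) 16 were higher in the ventricle and 3 in the atrium (median 0.34 against 0.01), and 22 were higher in cardiomyocytes than in other cells and 2 lower (83.0% called, median 1.49 against -0.03). Between E12.5 and E14.5, 9 rose and 2 fell (33.6% of all genes called). Between E14.5 and E16.5, 12 rose and 6 fell (38.5% called), but on total UMIs 4 rose and 9 fell and the median of the list was -0.03. On total UMIs the counts from E12.5 to E16.5 were 11 up and 9 down, and those between chambers 15 and 5. The changes given next are log2 changes from E12.5 to E16.5 by edgeR unless another contrast is named, and SEs were near 0.07 in the partners with higher counts, such as 0.07 for Ak1.

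In creatine supply, Gatm, the enzyme of the step before Gamt, fell by 1.58 ± 0.22 (adjusted p = 6.8e-06), from 1.73 and 1.94 CPM at E12.5 to 0.501 and 0.565 CPM at E16.5. It stood at 24.7 and 30.9 CPM at E10.5, where tissue and gate also differ. It was far lower in cardiomyocytes than in other cells (-4.06 ± 0.07). Slc16a12, a transporter of creatine, fell by 2.103 ± 0.11 (adjusted p = 2.5e-11), from 13.3 and 16.8 CPM to 2.74 and 3.41 CPM, and was higher in the atrium (-1.675 ± 0.09 for ventricle against atrium). Ahcy, which clears the product that Gamt leaves, fell by 0.56, and Mat2a, which makes its methyl donor, was not called (-0.04).

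In adenylate transfer, Ak1, the adenylate kinase of the cytosol, rose by 0.80 ± 0.07 (adjusted p = 1.8e-08) and Ak3 by 0.70, while Ak4 rose by 0.43 to E14.5 and fell by 0.42 after it. In mitochondrial exchange, the ATP carriers Slc25a4 and Slc25a5 changed by 0.70 ± 0.08 (called) and 0.04 (not called), the phosphate carrier Slc25a3 rose by 0.60, and the porins Vdac1, Vdac2 and Vdac3 rose by 0.42, 0.32 and 0.47. Slc25a4 stood at 2907 and 2676 CPM at E12.5, 3838 and 4046 CPM at E16.5 and 6162 CPM at P3. The TMM shift of 0.21 (log2) in this contrast bears on the small changes. In CPM, Slc25a5 was lower at E16.5, with 914.5 and 931 against 1070 and 1001 at E12.5. Vdac2 held 509 and 503 CPM at E16.5 against 484 and 454 CPM at E12.5. Atp5b, a subunit of the ATP synthase, rose by 0.51. All 7 of the carrier, porin and synthase genes were higher in the ventricle, by 0.33 (Vdac3) to 0.90 (Slc25a5). In that contrast 28.2% of all genes were higher in the ventricle, and the TMM shift was 0.16 (log2).

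Among the subunits of AMP-activated kinase, the energy sensor, Prkaa2 rose by 0.95 ± 0.07, Prkag1 by 0.47 and Prkag2 by 0.33, while Prkab2 fell by 0.415 and Prkaa1 by 0.24 and Prkab1 was not called (-0.13). Of the regulators of mitochondrial genes, the coactivator Ppargc1a rose by 1.06 ± 0.07 (adjusted p = 5.8e-10), from 76.6 and 77.8 CPM at E12.5 to 143 and 134 CPM at E16.5, and the receptor Esrra by 0.67. Its relative Esrrg was not called over the whole span (-0.12), fell by 0.265 from E14.5 to E16.5 and was higher in the ventricle by 0.75. Prkag2 and Prkab2 were higher in the atrium (-0.44 and -0.18 for ventricle against atrium).

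Over the 10 matrices, the genes whose log2 level in cardiomyocytes ran most like that of Ckm among 4676 genes were Lmo7 (Pearson's r = 0.994), Casq2 (0.991), Ahnak (0.990), Parvb (0.990) and Sh3kbp1 (0.9885). For Ckmt2 they were Aplp2 (0.985), Prdx3 (0.984), Hibadh (0.978), Ndufb10 (0.976) and Gpsm1 (0.976), and for Ckb they were Lamtor2 (0.966), Pradc1 (0.956), Pam16 (0.943), Timm10b (0.940) and Polr2f (0.936). These correlations describe 6 stages, among which library depth also differs, and many genes that rise with stage reach a high r.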

How the data were processed

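Single-cell RNA sequencing was analysed as 10 matrices of 27998 genes that the authors deposited as raw UMI counts per gene and barcode, without normalization. Matrix headers name Cell Ranger 3.1.0, and 3.0.0 for P3, and the submitters' processing notes name Cell Ranger 2.1.1 and Seurat 3.1.1, on mm10. The labels name trypsin and v2 chemistry, the paper collagenase II and v3 chemistry. The embryonic matrices list every barcode, the P3 matrix only filtered ones. E8.5 replicate 1 was not analysed here, and E16.5 replicate 1 is a matrix of 2 sample records. Matrices hold 67141166 to 259041468 UMIs, and kept libraries shared at most 1.9% of the barcodes of the smaller one.

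UMI counts were summed per library and cell set, and CPM are these sums per 1000000 UMIs. edgeR 4.0.16 (R 4.3.3; TMM, filterByExpr, quasi-likelihood F test, Benjamini-Hochberg over all genes tested, threshold 0.05) was the main test, and the SE is the size of the log2 change divided by the square root of F. The edgeR fits were tested on simulated data. DESeq2 1.42.0, RLE factors, total UMIs, no count filter, other gates and floors, mitochondrial ceilings, doublet removal and left-out libraries were alternatives. Doublets were kept, and free RNA was not removed. Cells were thinned to 2000 UMIs with a fixed seed to compare shares of cells. Marker gates asked for at least 4 of 8 markers and 2 more than any other list. Chamber, cell type, Nppa and cell cycle contrasts had the library as a block and the stage contrasts had none. The text names the 6 members, the partner genes called in a heart stage or mean chamber contrast (1 of them is not reported here), and the 5 genes most like Ckm, Ckmt2 and Ckb in log2(CPM + 1) at a mean of at least 20 CPM. The members and lists were chosen with earlier results of these data known. The Nppa, cell cycle and skeletal muscle comparisons were added after seeing the data.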

Additional observations from a re-analysis of the deposited data

Results flagged for a closer look

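The results here were listed because an effect differed between stages by edgeR's test of the difference itself (log2, adjusted p under 0.05). Outside the chamber contrast only the change from E12.5 to E16.5 was listed, and members called between other stages are left out. In the ventricle against atrium contrast, the change from E12.5 to E16.5 was -0.67 for Ckm, 0.62 for Ckb and 0.34 for Gamt, from E12.5 to E14.5 it was 0.78 for Ckm and 0.37 for Ckb, and from E14.5 to E16.5 it was -1.45 for Ckm. The Ckm change from E12.5 to E16.5 was -0.39 without E12.5 replicate 2, and that from E12.5 to E14.5 was 0.50 without E12.5 replicate 1. The Gamt change (adjusted p = 0.0225) was lost without either E12.5 library (adjusted p = 0.065 for each), without E16.5 replicate 2 (0.13) and with no replicate block (0.11), and the Ckb change to E14.5 without E14.5 replicate 1 (0.087).

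In cardiomyocytes against other cells, the change from E12.5 to E16.5 was 1.16 for Ckm, 0.28 for Ckb, 0.41 for Slc6a8, -0.43 for Gamt and -4.61 for Ckmt1, which rests on at most 10 UMIs in a cell set of a library, and 40.5% of genes differed. The Gamt change was lost without E16.5 replicate 1 (-0.21, adjusted p = 0.127), the Slc6a8 change without E12.5 replicate 2 (0.28, adjusted p = 0.167) and the Ckmt1 change without E12.5 replicate 1 (adjusted p = 0.116).

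Between Nppa tertiles, the change from E12.5 to E16.5 was 0.52 for Ckm, -0.18 for Ckb and -2.31 for Ckmt2, and the Ckb change was lost without E12.5 replicate 2 or either E16.5 library (adjusted p = 0.22, 0.072 and 0.29). Between cycling and other cells it was -0.27 for Ckm, 0.22 for Ckb, 0.88 for Ckmt2 and -0.23 for Gamt, where 15.2% of genes differed. Each of these 4 was lost when 1 library was left out, Ckm, Ckmt2 and Gamt without E12.5 replicate 2 (adjusted p = 0.263, 0.23 and 0.096) and Ckb without E12.5 replicate 1 (adjusted p = 0.054) or either E16.5 library (0.064 and 0.538). Their causes were not tested.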

How the results depend on the processing

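The rises of Ckm and Ckmt2 from E12.5 to E16.5 and the ventricular excess of Ckm, Ckb and Slc6a8 over the mean of stages kept direction and call in all alternatives run, and Ckmt2 lost its chamber call only with likely doublets by 6 marker lists left out (3.26, adjusted p = 0.083). A rule by 4 marker lists took out only 2.556 to 5.366% of the cardiomyocytes of a matrix. The 6-list rule took out 94.4 and 90.3% of the E12.5 and 79.9 and 63.3% of the E14.5 cardiomyocytes, and the cause was not tested. Under it the genes called were 3567 for E12.5 against E10.5 (6361 without it), 800 for E14.5 against E12.5 (4980), 3521 for E16.5 against E14.5 (5709), 3218 for E16.5 against E12.5 (8498) and 2366 between chambers (7224), and Gamt turned from -0.16 to 0.062 between chambers at E12.5. With a Tnnt2 gate of 5000 CPM, 3089 genes were called for E14.5 against E12.5, Gamt fell from E14.5 to E16.5 (-0.22, adjusted p = 0.015), as on total UMIs (-0.19), and the Ckm share was 0% at E8.5 (7 cells) and E10.5 (2 and 3 cells, with upper 95% limits of 12.3 and 45.9%), 12.6% at E12.5 and 96.7% at P3. Means of the share were 17.6% at E12.5 and 79.4% at E14.5 with no mitochondrial floor, 21.4% at E12.5 with 6-list doublets left out, and 1.29% at E10.5 without cells with skeletal muscle markers. With the study's mitochondrial ceilings Ckmt2 turned to -1.57 in E10.5 cardiomyocytes against other cells (adjusted p = 0.89), and the Ckb fall to E14.5 was lost (adjusted p = 0.06). Leaving out 1 library gave 4674 to 6234 genes called for E12.5 against E10.5, 2781 to 5049 for E14.5 against E12.5, 3552 to 6205 for E16.5 against E14.5, 7025 to 8633 for E16.5 against E12.5 and 6090 to 6855 between chambers. The lowest counts came without E14.5 replicate 1 (2781 and 3552) and replicate 2 (2937).

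Replicate numbers did not pair the libraries: deviations of same-numbered libraries correlated at 0.0016 to 0.068. With the replicate block the 4 stage contrasts called 6390, 5334, 6022 and 8747 genes, and no call of a member changed. Without the block in the contrasts within a library, 6926 genes were called between chambers, 13661 against other cells, 2568 between Nppa tertiles (4036 with it) and 6802 by cell cycle. With DESeq2, 1350 genes were called between Nppa tertiles and 4932 by cell cycle (7832 with edgeR). Of the 2565 values of members under alternatives, 55 changed sign. The 4 of them that were called in either fit are given here, and the other 51 were called in neither. Precision is limited by 2 libraries per stage, by 191 and 201 cardiomyocytes at E10.5 and by single UMIs for Ckmt1 and early Ckmt2.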
